A study of Mus musculus with 6 samples.

Results

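The genes described here are the Zfp genes expressed in mouse prefrontal cortex. Zfp is the mouse gene symbol for "zinc finger protein", and most genes that carry it encode transcription factors of the C2H2 class. The members were chosen by their name (Zfp, a number and at most 1 letter) and by their level, selected on a mean raw count of 100 or more over the 6 libraries. Of 368 Zfp rows among 21878 genes, 290 met that rule. Just inside it lay Zfp438, Zfp963 and Zfp85, with mean counts of 103.5, 104.3 and 108.3. Zfp82, Zfp786 and Zfp568 lay just outside, with 99.8, 98.0 and 97.8. All 290 were tested, and the rule used no difference between groups.

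RNA was sequenced in bulk from prefrontal cortex of 3 control and 3 Gls1_CamkIIaCre mice. The control mice were CamKIIαCre;Gls1+/+ littermates, whose samples are labelled WT, and the Gls1_CamkIIaCre mice were CamKIIαCre;Gls1+/flox. Both groups therefore carry the Cre transgene, whose CamKIIα promoter is active in excitatory forebrain neurons, and the mutants are heterozygous for glutaminase 1 loss in a mosaic of those neurons. Homozygous mosaic mice were not viable, and age and sex are not given in the labels. No cells were sorted, so neurons with and without the recombined allele and all glia are measured together. In bulk tissue, fewer cells of a type and less RNA per cell cannot be told apart.

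A C2H2 zinc finger is a short loop of protein held in shape by a zinc ion bound to a pair of cysteines and a pair of histidines. Fingers in tandem read DNA, each contacting a few bases, and a conserved linker joins them. Many mammalian Zfp proteins also carry a KRAB domain, which recruits the co-repressor Trim28 (KAP1) and with it the methyltransferase Setdb1 and heterochromatin proteins, and is known for silencing transposable elements and keeping imprints. Some members use fingers to bind RNA or act as ubiquitin ligases.

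The 6 coding stretches that follow show what the name stands for in members the results turn on, 5′ to 3′ on the coding strand (GENCODE M21, GRCm38). Capitals mark the codons of the cysteine and histidine pairs of the C2H2 motif. In Zfp369, Zfp46, Zfp189 and Zfp316 the run goes on through the linker, and Zfp207 and Zfp385b have no such linker. The positions are chr13:65297151-65297228 (plus strand) for Zfp369, chr4:136290304-136290381 (plus) for Zfp46, chr4:49529292-49529369 (plus) for Zfp189, chr5:143255075-143255152 (minus) for Zfp316, chr11:80383491-80385963 (plus, across an intron) for Zfp207 and chr2:77719566-77719634 (minus) for Zfp385b. All lie in coding exons.
Zfp369: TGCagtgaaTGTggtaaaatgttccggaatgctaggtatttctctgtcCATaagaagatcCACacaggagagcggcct
Zfp46: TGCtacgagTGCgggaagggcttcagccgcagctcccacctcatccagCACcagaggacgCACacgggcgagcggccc
Zfp189: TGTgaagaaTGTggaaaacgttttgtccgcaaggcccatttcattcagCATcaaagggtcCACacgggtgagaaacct
Zfp316: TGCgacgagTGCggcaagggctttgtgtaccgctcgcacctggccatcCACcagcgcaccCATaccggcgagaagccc
Zfp207: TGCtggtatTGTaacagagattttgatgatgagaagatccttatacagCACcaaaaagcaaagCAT
Zfp385b: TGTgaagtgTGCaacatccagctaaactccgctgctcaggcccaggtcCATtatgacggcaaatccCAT

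Across the 288 members with a translated coding sequence, the median protein held 10 C2H2 motifs and the range was 0 to 36, the highest in Zfp142. A KRAB-like stretch was found in 146 and not in 142. A SCAN-like stretch, the dimerisation module of some zinc finger proteins, was found in 12. Members were clustered in the genome: 71 lay on chromosome 7, 32 on chromosome 17 and 24 on chromosome 13, and 162 had another zinc finger gene (Zfp, Zscan, Zkscan or Zbtb) within 100 kb. Members of such clusters can share sequence, though most shared little. In 235 members under 5% of the transcript's 50-base words also occur in another gene. In 54 members 5% or more do, and their counts depend on how shared reads were assigned.

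Most members were expressed at a low level for their length. Their median in controls was 3.36 FPKM (fragments scaled to gene length and library total), against 7.98 FPKM for all tested genes at a mean count of 100 or more. Zfp365, which encodes a centrosomal protein that binds Disc1 and has no C2H2 motif by the pattern used, stood far above the others at 141 FPKM. Zfp706 followed at 44.8 FPKM, then the ubiquitin ligase gene Zfp91 at 28.5 and the RNA-binding protein gene Zfp106 at 25.9. The lowest member was at 0.493 FPKM.

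The comparison of Gls1_CamkIIaCre with control asks whether transcript levels in this cortex differ when a glutaminase 1 allele is lost in part of the excitatory neurons. For Zfp genes the differences were few and small. Of 290 members, 9 rose and 1 fell at an adjusted p under 0.05 (edgeR quasi-likelihood test, adjusted over all 14440 genes tested). That is 3.45% of members, against 8.24% of all genes tested (3.95% higher and 4.29% lower) and 9.43% of the 11585 tested genes at a mean count of 100 or more (4.8% higher and 4.64% lower). No member differed by 1.5-fold or more. Of those 11585 genes 94 did, a small share, so 0 of 290 members is near it. The 95% interval of the fold change lay within 1.5-fold either way for 284 members and within 1.2-fold for 171. None of the 58 tested Zfp genes below the count threshold passed by edgeR, DESeq2 or limma voom. At an unadjusted p under 0.05 by edgeR, 1 was higher and 4 lower. Of the 1190 genes that passed by edgeR over all genes tested, 1093 had a mean count of 100 or more. Few genes of any kind thus passed below it, and 0 of 58 is no result particular to Zfp genes.

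**Figure D1:**
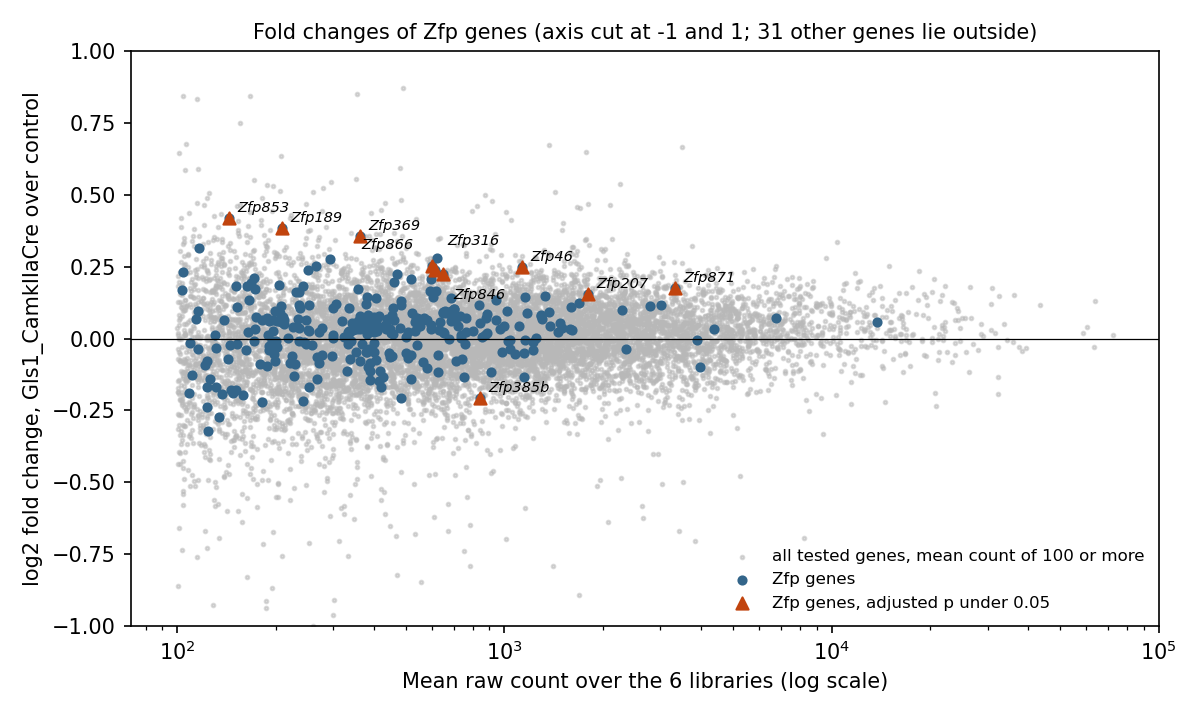
Fold change (log2, Gls1_CamkIIaCre over control) against mean raw count on a log axis, with 1 point per gene. Grey points are all tested genes at a mean count of 100 or more, blue points the 290 Zfp genes and red triangles the 10 that passed, of which 9 lie above 0 and Zfp385b lies below it.

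Zfp369 had the smallest p among the members and the clearest separation. It encodes a protein with a SCAN-like and a KRAB-like stretch, related to the neurotrophin receptor-interacting factor encoded by Zfp110. Its level was 16.8, 16.8 and 17.1 CPM (counts scaled to library total, TMM-normalised) in controls 1, 2 and 3 and 22.01, 21.7 and 21.2 CPM in Gls1_CamkIIaCre 1, 2 and 3. All mutant libraries lay above all controls, and the spread within each group was far smaller than the gap between them. The log2 fold change was 0.36 ± 0.077 (SE, n = 3 per group, edgeR adjusted p = 0.00649). Zfp110 itself had a log2 fold change of 0.01 and an adjusted p of 0.960 by edgeR.

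Zfp46, a KRAB-like member with 12 fingers, stood at 55.2, 56.8 and 53.3 CPM in the controls and 61.2, 66.1 and 69.1 CPM in the mutants. The groups did not overlap, and the mutant libraries were more spread than the controls (log2 fold change 0.25 ± 0.055 SE, edgeR adjusted p = 0.00789). Zfp871, with 15 fingers, was the most abundant by CPM of the members that passed. It had 165, 163 and 172 CPM in the controls and 185, 194 and 186 CPM in the mutants (0.18 ± 0.041, adjusted p = 0.0110 by edgeR). Its difference was small, and again no control reached the lowest mutant.

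Zfp189, a KRAB-like member with 16 fingers, has been studied in mouse prefrontal cortex for its part in resilience to social stress. It was nearly constant in the controls, at 9.60, 9.64 and 9.74 CPM, and higher and more variable in the mutants, at 11.2, 12.9 and 13.7 CPM. The log2 fold change was 0.38 ± 0.107 (SE, edgeR adjusted p = 0.0308). Gls1_CamkIIaCre 1 was the lowest mutant and still lay above the controls.

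Zfp316 and Zfp853 both rose, and they are neighbours on the minus strand of chromosome 5, at 143249697 to 143270022 and 143287038 to 143293623 (GRCm38). Zfp316 had 27.3, 32.6 and 29.97 CPM in the controls and 36.4, 36.3 and 33.3 CPM in the mutants (log2 fold change 0.24 ± 0.071 SE, edgeR adjusted p = 0.0434). Zfp853, at 6.07, 7.02 and 6.57 against 9.59, 8.58 and 8.12 CPM, had the largest log2 fold change of any member (0.42 ± 0.127, adjusted p = 0.0459 by edgeR). Neither gene's groups overlapped, although for Zfp316 the highest control and the lowest mutant were close. Zfp12, on the plus strand beside them at 143235163 to 143248834, did not pass, with a log2 fold change of 0.01 (edgeR adjusted p = 0.937).

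Zfp866 and Zfp846 are KRAB-like members in zinc finger clusters of chromosomes 8 and 9. Zfp866 stood at 27.6, 28.2 and 32.1 CPM in the controls and 35.7, 36.3 and 32.7 CPM in the mutants, with Gls1_CamkIIaCre 3 just above control 3 (log2 fold change 0.25, edgeR adjusted p = 0.0318). Its span overlaps Atp13a1, and 6.90% of its 50-base words occur in another gene, so its reads may be shared. Zfp846 had 35.0, 29.9 and 30.9 CPM in the controls and 35.9, 39.3 and 36.8 CPM in the mutants (0.22, adjusted p = 0.0479 by edgeR). Control 1 and Gls1_CamkIIaCre 1 nearly met.

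Zfp207 and Zfp385b held the fewest C2H2 motifs of the members that passed, 2 and 4, and like Zfp853 no KRAB-like stretch. Zfp207 encodes BuGZ, which binds Bub3 and acts at the mitotic spindle and in splicing. It rose from 91.5, 94.5 and 86.6 CPM in the controls to 105, 98.4 and 100.1 CPM in the mutants (log2 fold change 0.16 ± 0.047 SE, edgeR adjusted p = 0.0463). Zfp385b was the member that fell, from 50.1, 48.5 and 45.5 CPM in the controls to 43.2, 42.7 and 39.1 CPM (-0.21 ± 0.060, adjusted p = 0.0377 by edgeR). In both genes the groups were separate but close.

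**Figure D2:**
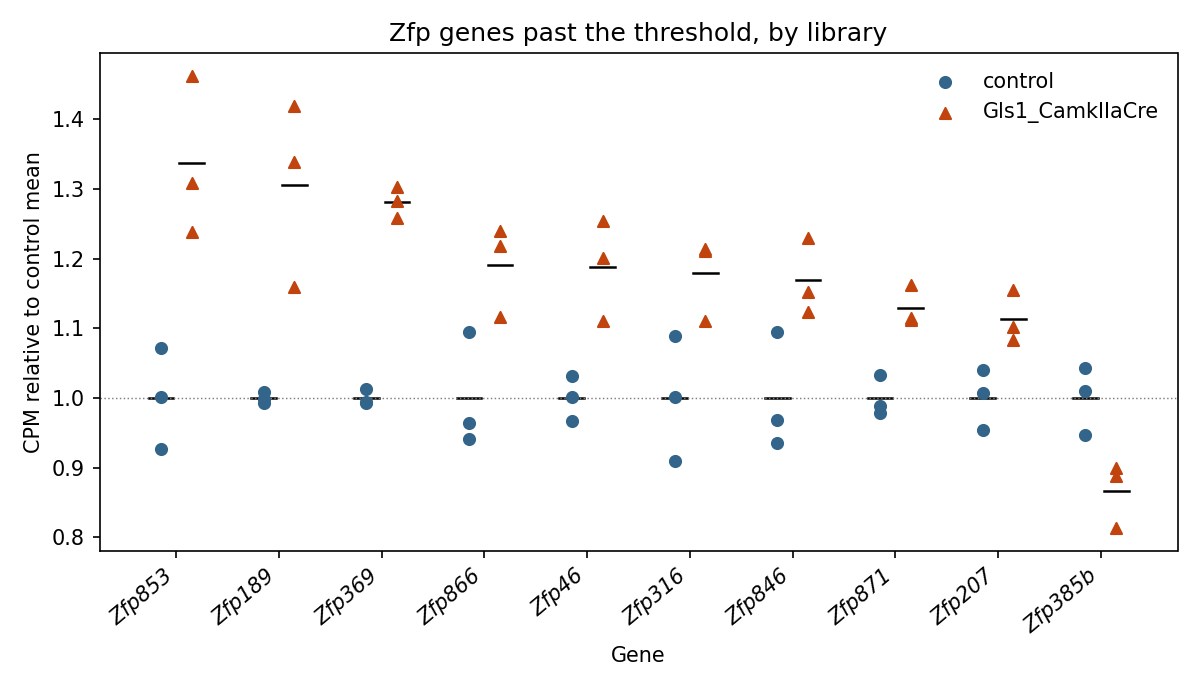
CPM of each Zfp gene that passed, divided by its control mean, in each library (circles for control, triangles for Gls1_CamkIIaCre, 3 libraries each), with bars at the group means. No gene's groups overlap, and Zfp369 has tight groups where Zfp846, Zfp866 and Zfp316 have a control close to a mutant.

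Most of these calls lay near the threshold. Zfp369 passed under all 17 alternative settings, with an adjusted p between 0.00272 and 0.0360. Zfp46 and Zfp871 each passed under 14. Zfp46 lost the call without Gls1_CamkIIaCre 2 (edgeR adjusted p = 0.0530) and on both log2 FPKM scales (limma, 0.0958 and 0.102). Zfp871 lost it without Gls1_CamkIIaCre 2 (0.0822), without control 2 (0.0596) and after a length correction (0.0525). The other 7 passed under 4 to 10 settings, and their highest adjusted p values lay between 0.121 and 0.246. DESeq2 called 3 members (6.33% of all genes) and limma voom 5 (6.95%). Without Gls1_CamkIIaCre 2 edgeR called only Zfp369 (2.85% of all genes), and without any other single library it called 3 to 6 members.

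As a set the members lay slightly higher in the mutants. Their median log2 fold change was 0.033, with quartiles of -0.039 and 0.086, against a median of 0.0043 over the 11585 genes at a mean count of 100 or more, with quartiles of -0.079 and 0.080. Values above 0 were found for 188 members, or 64.8%, against 51.4% of those genes. At an unadjusted p under 0.05, 30 members were higher and 8 lower by edgeR, together 13.1%, against 24.9% of those genes. All 3 mutant libraries lay above all 3 controls in 39 members (13.4%, against 14.9%), and below them in 20 (6.90%, against 14.0%). The differences between these shares were not tested.

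The same values can be read by library, which restates this shift and is no separate support for it. The summed level of the members was 9623, 9622 and 9578 CPM in controls 1, 2 and 3 and 9941, 9876 and 9847 CPM in Gls1_CamkIIaCre 1, 2 and 3. The median log2 ratio of a member to its own mean over the 6 libraries was -0.0049, -0.022 and -0.026 in controls 1, 2 and 3 and 0.030, 0.019 and -0.0012 in Gls1_CamkIIaCre 1, 2 and 3. Gls1_CamkIIaCre 3 therefore sat closest to the controls, and control 1 closest to the mutants. With upper-quartile factors the members' median was 0.017 beside -0.019 for all genes tested, and it stayed above the all-gene median in every alternative run.

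**Figure D3:**
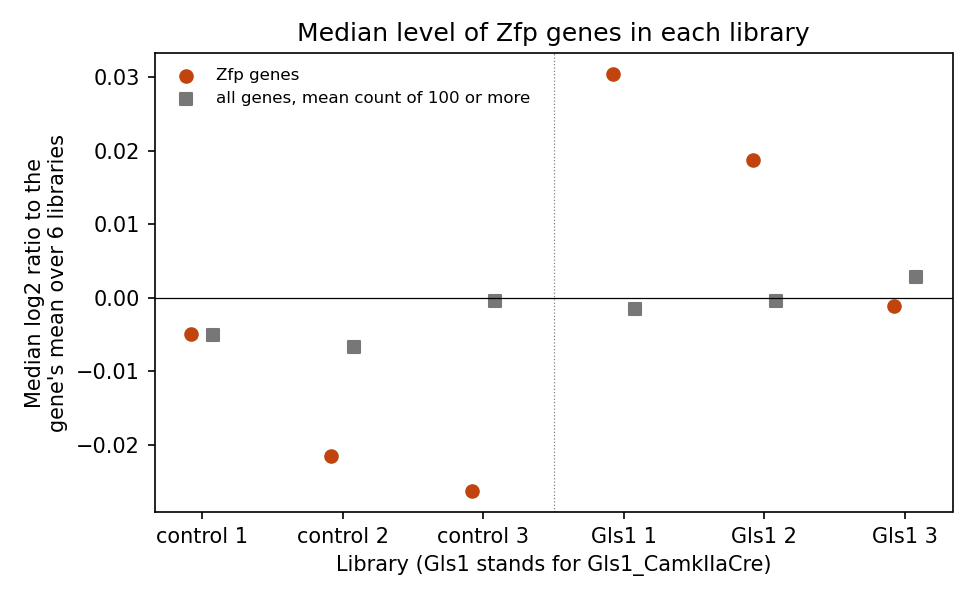
Median log2 ratio of a gene to its mean over the 6 libraries, by library, for the 290 Zfp genes (circles) and for all genes at a mean count of 100 or more (squares). The Zfp medians are -0.026 to -0.0049 in controls and -0.0012 to 0.030 in Gls1_CamkIIaCre, and the squares stay close to 0.

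Medians by protein feature and position lay close together. The shares that passed stand beside 3.45% of all members and 9.43% of all tested genes at a mean count of 100 or more. Members with a KRAB-like stretch showed a median of 0.028 on the log2 scale, and 7 of 146 rose (4.79%). Members without one had a median of 0.038, and 2 of 142 rose and 1 fell (2.11%). By number of fingers, the medians were 0.044 for 47 members with 0 to 4, 0.028 for 80 with 5 to 9, 0.033 for 101 with 10 to 14 and 0.038 for 60 with 15 or more. Members with a zinc finger gene within 100 kb had a median of 0.030 (5 of 162 rose, 3.09%). Those without had 0.039 (4 of 127 rose and 1 fell, 3.94%). On chromosome 7, which holds the most members, none of 71 passed by edgeR, DESeq2 or limma voom, 7 were higher and 2 lower at an unadjusted p under 0.05, and the median was 0.039. These differences between classes were not tested.

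**Figure D4:**
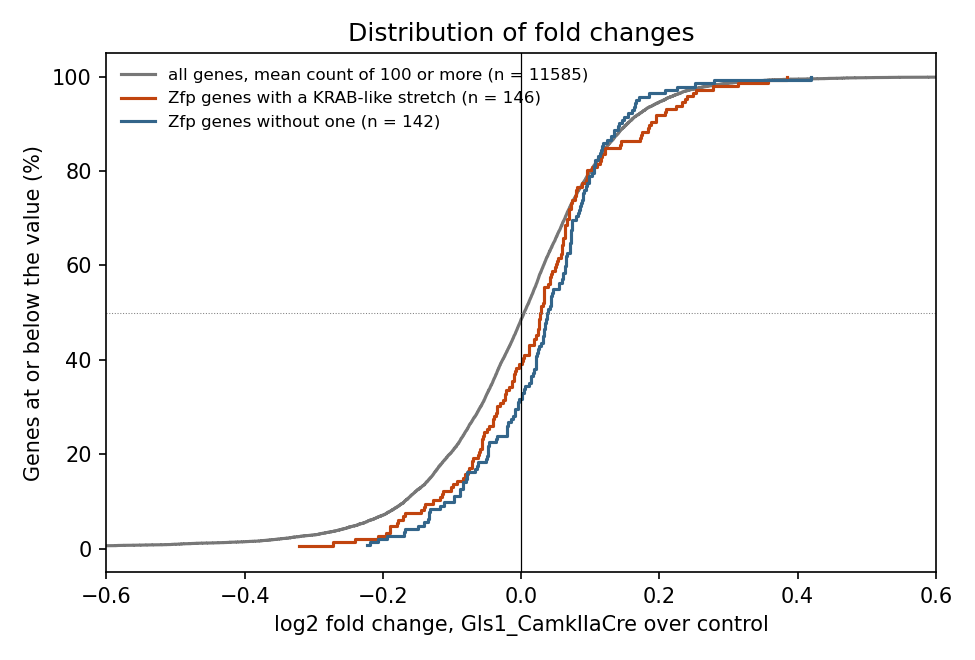
Cumulative share of genes (%) at or below each log2 fold change, for all tested genes at a mean count of 100 or more (grey, n = 11585), Zfp genes with a KRAB-like stretch (red, n = 146) and Zfp genes without one (blue, n = 142). At the 50% line the Zfp curves lie at 0.028 and 0.038 and the grey curve at 0.0043, and in the lower part they lie to its right.

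By mean count, the median was 0.012 in the lowest tercile of members, 0.032 in the middle and 0.055 in the highest. Of the 97 members in the highest, 6 rose and 1 fell, or 7.22%, against 12.2% of all tested genes in its count range. In the lowest and middle terciles 2.06% and 1.04% of members passed, against 4.95% and 5.78% of all genes there. The quartiles overlapped, at -0.079 and 0.091 in the lowest and 0.0013 and 0.095 in the highest tercile. All tested genes in the same count ranges, from a mean count of 100 up, had medians of -0.030, -0.0046 and 0.014. The differences between terciles were not tested. By gene length, among all genes at a mean count of 100 or more, the median was -0.028 in the length range of the shortest tercile of members, 0.022 in the middle range and 0.052 in the longest. The members' own medians in those ranges were 0.032, 0.038 and 0.033. Zfp genes had a median length of 6673 bases, against 5159 for those genes, and after a correction for length their median was 0.044 beside 0.023 for all genes tested.

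Of 15 members listed for a part in the nervous system, Zfp189 rose, Zfp385b fell and 13 did not pass. The 2 that passed are 13.3% of the list, against 8.24% of all genes tested and 3.45% of members. That list was chosen with earlier results of these data known, and the shares were not tested. Zfp365 had 718 ± 24.3 against 748 ± 30.5 CPM (control against Gls1_CamkIIaCre here and in what follows, SD, n = 3 mice each, edgeR adjusted p = 0.422), and the 95% interval of its log2 fold change was -0.025 to 0.14. Zfp462, whose product acts in heterochromatin during neural development, had an interval of -0.027 to 0.21. Zfp804a, the mouse counterpart of a schizophrenia risk gene, had 27.0 ± 3.58 against 26.1 ± 1.87 CPM. Zfp24, needed for myelination, had 55.9 ± 2.72 against 54.6 ± 0.941 CPM. Zfp536, a repressor of neuronal differentiation, had 19.02 ± 0.774 against 18.4 ± 1.87 CPM. In each of these genes the groups overlapped.

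Zfp521, a partner of early B-cell factors in neural fate, was lower in all mutant libraries, at 10.4 ± 0.496 against 8.91 ± 0.300 CPM, and did not pass (log2 fold change -0.22 ± 0.109 SE, edgeR adjusted p = 0.236). Zfp609, which acts with Nipbl in migrating cortical neurons, had 67.3 ± 2.35 against 74.6 ± 1.26 CPM and lay just outside the threshold (0.15, adjusted p = 0.0646 by edgeR). Its relative Zfp608 had 29.9 ± 2.22 against 36.3 ± 7.66 CPM (adjusted p = 0.409). Without Gls1_CamkIIaCre 3 its log2 fold change was 0.44 and passed (edgeR adjusted p = 0.00187), so that 1 library decided the value. Log2 fold changes of the others were 0.09 for Zfp292, 0.05 for Zfp335, 0.12 for Zfp423, 0.10 for Zfp704 and -0.05 for Zfp385a, and none passed by edgeR.

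Of 7 members that act on RNA, ubiquitin or the spindle, Zfp207 rose and the rest did not pass. This 1 gene is 14.3% of the list, against 8.24% of all genes tested and 3.45% of members. Its call held under 5 of 17 alternative settings. Zfp326, a subunit of a complex that links transcription and splicing, was higher in all mutant libraries, at 29.4 ± 0.561 against 33.9 ± 1.81 CPM (edgeR adjusted p = 0.0518). It passed with no filter on low counts (0.0450), at a mean count of 50 or more (0.0499) and with a replicate block (0.0363). Zfp106 had 350 ± 5.92 against 368 ± 14.2 CPM, and Zfp638, an RNA-binding protein gene, 142 ± 2.47 against 154 ± 4.38 CPM. Zfp91 stood at 206 ± 4.86 against 205 ± 5.79 CPM (log2 interval -0.087 to 0.079). Zfp598, the ubiquitin ligase of collided ribosomes, had a log2 fold change of 0.04 and Zfp346, which binds double-stranded RNA, of 0.02.

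None of 12 general transcription regulators passed by edgeR, DESeq2 or limma voom, and by edgeR 1 was higher and 1 lower at an unadjusted p under 0.05. Zfp148 had 154 ± 5.47 against 167 ± 3.73 CPM (edgeR adjusted p = 0.0912). Zfp143, an activator of small nuclear RNA genes, had 13.8 ± 0.957 against 11.9 ± 0.621 CPM (0.189). The groups of Zfp281, a regulator of pluripotency, did not overlap, at 66.8 ± 1.65 against 70.7 ± 1.80 CPM (0.343). The remaining 9 (Zfp64, Zfp219, Zfp318, Zfp384, Zfp407, Zfp507, Zfp516, Zfp644 and Zfp827) had log2 fold changes from -0.01 to 0.09.

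The 6 members known for guarding imprints or silencing repeats did not pass by edgeR, DESeq2 or limma voom, and 0 of them did at an unadjusted p under 0.05. Zfp57, which holds DNA methylation at imprinted loci, had 10.2 ± 0.630 against 11.6 ± 1.19 CPM (edgeR adjusted p = 0.334). Zfp445, its partner in that task and the third most abundant member by CPM, had 230 ± 2.35 against 236 ± 5.61 CPM (0.656). Zfp809, which silences murine leukaemia proviruses, had 13.02 ± 1.74 against 12.9 ± 0.900 CPM (0.965). Zfp932, Zfp961 and Zfp708 had log2 fold changes of -0.0038, 0.03 and 0.07. Of the 50-base words of Zfp708, 94.9% occur in another gene, so its value is uncertain.

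The lowest fold changes belonged to weakly expressed members that did not pass. Zfp931 had 7.32 ± 0.205 against 5.85 ± 0.980 CPM, a log2 fold change of -0.32 ± 0.143 (SE, edgeR adjusted p = 0.183). Zfp51 had 7.78 ± 0.980 against 6.43 ± 0.456 CPM (-0.27) and Zfp599 7.10 ± 0.554 against 6.004 ± 0.327 CPM (-0.24). In these 3 genes all mutant libraries lay below all controls. That held for 6.90% of members and 14.0% of all tested genes at a mean count of 100 or more. The 3 were picked for their fold change, so the separation is no separate support.

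The co-repressor machinery that KRAB proteins recruit was measured through 26 tested genes, of which 2 passed. That is 7.69%, close to the 8.24% of all genes tested, and is no result particular to the list. Dnmt1, the maintenance DNA methyltransferase, rose from 54.1 to 66.2 CPM in the mutants, by 0.29 ± 0.061 on the log2 scale (SE, edgeR adjusted p = 0.00615). Cbx5, which encodes heterochromatin protein 1 alpha, rose from 274 to 298 CPM (0.12 ± 0.037, adjusted p = 0.0444 by edgeR). No other gene passed, and the median was 0.049. Trim28 had 97.2 against 101 CPM (0.05, adjusted p = 0.549) and Setdb1 43.5 against 47.0 CPM (0.11, adjusted p = 0.278). Neither Dnmt1 (0.0595) nor Cbx5 (0.122) passed without Gls1_CamkIIaCre 2, and Cbx5 lost the call without each library in turn (edgeR adjusted p of 0.0703 to 0.130).

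Other zinc finger gene families, some of them also with C2H2 fingers, were read at a mean count of 100 or more. At that level 9.43% of all tested genes passed. Of 36 Zbtb genes, whose products join fingers to a BTB domain, 3 rose (8.33%, Zbtb11, Zbtb16 and Zbtb46), and the family median was 0.084. Of 20 Zscan and Zkscan genes 2 rose (10%, Zkscan16 and Zscan26), with a median of 0.020. Of 14 Klf genes 2 rose (14.3%), Klf2 and Klf4, by 0.75 and 0.59 on the log2 scale, which is more than any Zfp member, and the median was 0.051. Of 14 Zc3h genes Zc3h13 rose (7.14%), with a median of 0.012, and of 20 Zdhhc genes Zdhhc23 fell (5%), with a median of 0.053. No gene of the 6 Zmym, 7 Zfand and 7 Zswim genes passed by edgeR, and 1, 1 and 3 of them had an unadjusted p under 0.05. Their medians were 0.028, -0.045 and 0.048. No difference between these families and the Zfp genes was tested.

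Library totals lay between 17987807 and 19330961 counts. Of 12 markers of cortical excitatory neurons, all detected in every library, 2 passed (16.7%, against 8.24% of all genes tested). Fezf2 rose from 29.4 to 37.5 CPM and Neurod2 from 76.7 to 92.1 CPM (edgeR adjusted p = 0.00958 and 0.0387). As a list the 12 did not all move 1 way: 7 had a log2 fold change above 0, and the median was 0.062. Camk2a was higher and Bcl11b lower in all mutant libraries, and neither passed (edgeR adjusted p = 0.0602 and 0.0651). Markers of other cells and regions also moved with the groups. The 18 tested striatum markers summed to 878 to 1445 CPM in controls and 352 to 399 CPM in mutants. All 18 were lower in every mutant library than in any control, and 16 passed. The 12 oligodendrocyte markers summed to 3609 to 4283 CPM in controls and 3270 to 3728 CPM in mutants. Of these 12, 0 had a log2 fold change above 0, and 6 passed as lower. Of 10 astrocyte markers 4 passed as lower, of 10 microglia markers 4 and of 10 endothelial and mural markers 5. Of 8 meningeal markers 6 did, and of 8 interneuron markers 4. In these 5 lists 2, 1, 0, 0 and 1 markers had a log2 fold change above 0. None of these markers was at 0 in any library. Of 16 immediate early genes 15 had a log2 fold change above 0, and 6 passed as higher. That list summed to 628 to 744 CPM in controls and 816 to 1056 CPM in mutants. The part of these shifts in the Zfp values was not tested.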

How the data were processed

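Reads per gene, as whole-number counts, and FPKM for the same genes were deposited for 3 control and 3 Gls1_CamkIIaCre mice. Per the submitters' processing notes the build was GRCm38, also called mm10. Aligner, counting tool and strand use were not given in the sources used here, and reads of genes that overlap may be mixed.

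The tests ran in edgeR 4.0.16 under R 4.3.3 on the counts (TMM factors, filterByExpr, robust quasi-likelihood fit, no covariate) over 14440 genes, with Benjamini-Hochberg adjustment. The common biological coefficient of variation was 4.75%. The labels call the samples separate mice. No library pair of 1 group agreed within sampling noise (chi-square per degree of freedom 2.27 to 4.14). The test was also run on simulated counts of the 14440 genes for Gls1_CamkIIaCre against control, with 50 genes changed at each fold. It called 42% of genes changed by 1.2-fold, 70% by 1.5-fold and 92% by 2-fold, and 20 of 14240 unchanged genes. Small differences can therefore be missed. The changed genes came from all count levels and were fewer than the genes called in the data, so these rates are not those of the members.

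The members and lists were chosen with earlier results of these data known. Named genes are the members that passed, the 5 of highest CPM, the 3 of largest fold change in each direction, those on 4 lists of known roles, the genes next to the count threshold, and the co-repressor genes that passed with Trim28 and Setdb1. Zfp110, Zfp12 and Zfp142, the called genes of other families and 4 cortical markers were named after their values were seen. Zfp36, Zfp217, Zfp488, Zfp503 and Zfp568, on the role lists, lay under a mean count of 100. The targeted gene is not reported here.

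Coding sequences came from the longest complete GENCODE M21 protein-coding transcript, which stood in for a RefSeq protein table. A C2H2 motif was a pair of cysteines 2 to 4 residues apart, 12 residues, and a pair of histidines 3 to 5 residues apart. KRAB-like and SCAN-like stretches were matches to a residue pattern, not a domain search. Gene length was the ratio of deposited counts to deposited FPKM.

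Alternatives were DESeq2 1.42.0, limma 3.58.1 (voom, and log2 of FPKM with a pseudocount of 1 or 0.1), other scaling factors, other filters and thresholds, a replicate block, a non-robust fit, a smooth length correction per library with 4 degrees of freedom, each library left out in turn, and other member limits.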

Additional observations from a re-analysis of the deposited data

How the results depend on the processing

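Members that passed numbered 10 in the edgeR test. The number was 3 with DESeq2 and 5 with limma voom. It was 6 with upper-quartile factors and 6 with a non-robust fit. On log2(FPKM + 1) and on log2(FPKM + 0.1) limma called 3 members each, beside 672 and 733 of all genes. At an adjusted p under 0.01 edgeR called 2 members and 402 genes, and under 0.10 it called 18 and 1862. With each library left out in turn the members called ranged from 1 to 6 and all genes called from 415 to 1098, the lowest without Gls1_CamkIIaCre 2. The members' median log2 fold change of 0.033 was 0.0166 with upper-quartile factors and 0.0142 on log2(FPKM + 1). With upper-quartile factors 429 of all genes were higher and 749 lower, against 571 and 619.

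Of the 26 co-repressor genes, 2 passed in the edgeR test. With upper-quartile factors, on either log2 FPKM scale, with the non-robust fit, after the length correction and at an adjusted p under 0.01, 1 passed, and 0 to 1 passed with a library left out. Their median of 0.049 was 0.0319 with upper-quartile factors, 0.0117 on log2(FPKM + 1) and 0.0121 on log2(FPKM + 0.1). The cause of these shifts was not tested. No called value reversed its direction in the alternatives run.

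Samples share replicate numbers across groups. Deviations of same-numbered samples correlated at 0.139, -0.026 and 0.140, and those of differently numbered samples at -0.171 to 0.047. The values 0.139 and 0.140 were thus the highest. Because the labels do not say that the numbers pair samples, the main test used no block. Whether the numbers mark pairs or a batch was not tested. A replicate block gave 15 members and 1758 genes, kept the 10 members and added Zfp30, Zfp326, Zfp35, Zfp609 and Zfp738. Zfp genes below a mean count of 100 were measured with few reads, and differences there may not have been detectable.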
